A study of Homo sapiens with 9 samples.

Results

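The respiratory chain of human cells is built from 2 genomes, and its genes were compared here between the mitochondrial and the nuclear part in H1975 cells with altered GRP78. The group was chosen by gene name: the 13 protein genes of the mitochondrial genome and 46 nuclear genes that encode subunits of complexes I to IV or cytochrome c. All 59 genes were found among the 61544 genes of the count files, and all 59 passed the filter on low counts. Every group first received si78, an siRNA that targets the GRP78 transcript in its 3′ untranslated region, for 24 h, and then a plasmid for 48 h. The plasmid was empty pcDNA3 (Vector), FLAG-tagged wild-type GRP78, called F-78(WT) and here WT, or the same protein with alanine in place of 3 lysines of its nuclear localization signal (NLS), called F-78(NLS Mut) and here NLS Mut. H1975 is a line of human lung adenocarcinoma, an epithelial cancer, and the plasmids were introduced transiently. Cells without si78 were not analysed here. Each group had 3 RNA-Seq libraries. The sources used here do not say whether the replicates were separate cultures, so p-values measure only the spread between these libraries.

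The mitochondrial genome is a small circle present in many copies per cell, transcribed from both strands as long precursors that are cut into rRNAs, tRNAs and mRNAs. Its proteins form the hydrophobic cores of complexes I, III and IV and of the ATP synthase, while the nuclear genome encodes the remaining subunits, all of complex II, and cytochrome c. Electrons pass from complex I or II to complex III, then through cytochrome c to complex IV, where oxygen is reduced. The 2 sets of transcripts are made by different polymerases, and the assembled complexes need both. The comparisons ask whether restored GRP78, with or without its NLS, goes with a change in either set.

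HSPA5, the gene of GRP78, separated Vector from both GRP78 groups as the labels say, and does not tell the GRP78 forms apart. It stood at 359, 383 and 391 CPM (reads of a gene scaled to a common library size) in the Vector libraries, at 5031, 5814 and 6145 in WT, and at 4962, 5156 and 4765 in NLS Mut. These counts join plasmid and endogenous transcript. WT and NLS Mut libraries overlapped, with a log2 difference of 0.19 ± 0.051 (SE, adjusted p = 0.079, edgeR). Each library held between 17671055 and 27476298 reads on genes. Epithelial markers were present (EPCAM at 185 to 220 CPM, KRT8 at 1448 to 1745), while of 6 markers of other cell types DCN (stroma) and CD68 (macrophages) were at 0 in all 9 libraries and PTPRC (leukocytes) did not exceed 0.275 CPM. LUM (stroma) was at 0.0385 to 0.0904 CPM in WT and at 0 elsewhere, and the endothelial markers VWF and PECAM1 were at 0.0964 to 0.601 and 2.96 to 5.74 CPM with overlapping groups. Of 6 epithelial markers, KRT19 and CDH1 were higher in WT than in NLS Mut, by 0.23 and 0.27 on the log2 scale (adjusted p = 0.044 and 0.036, edgeR), and CDH1 was lower in NLS Mut than in Vector by a log2 difference of -0.25 (adjusted p = 0.044). The part of these shifts in the results on the respiratory chain was not tested. Counts followed GC content with a slope of 0.101 and 0.112 in log2 per 10 points of GC in Vector replicates 2 and 3, against -0.075 to 0.031 in the other 7 libraries, Vector replicate 1 (-0.043) included. Leaving out Vector replicate 1 therefore keeps the Vector libraries that differed in slope from the other groups. Without it the genes called over the whole table went from 104 to 1256 for WT minus Vector, from 148 to 1002 for NLS Mut minus Vector and from 94 to 388 for WT minus NLS Mut, so member counts are also given without it.

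Summed over the 13 mitochondrial genes, transcripts were more abundant in WT than in Vector. The sum was 44707, 41982 and 41448 CPM in Vector, 54173, 47679 and 47679 in WT, and 44652, 46206 and 45528 in NLS Mut. Every WT library lay above every other library, and WT replicate 1 was the highest of the 9. NLS Mut replicate 1 lay just below Vector replicate 1, so these groups overlapped. Against Vector, the mean sum was 16.7% higher in WT and 6.44% higher in NLS Mut, and it was 9.64% higher in WT than in NLS Mut. Without WT replicate 1 the excess of WT was 11.6% over Vector and 4.88% over NLS Mut. The 46 nuclear genes gave no such order. Their sum was 3045, 3267 and 3443 CPM in Vector, 3044, 3318 and 3244 in WT, and 3278, 3378 and 3256 in NLS Mut, and all 3 groups overlapped. The log2 ratio of the mitochondrial to the nuclear sum was 3.72 ± 0.15 (SD, n = 3) in Vector, 3.96 ± 0.17 in WT and 3.78 ± 0.020 in NLS Mut. On this ratio WT overlapped with Vector, because Vector replicate 1 reached 3.88 and WT replicates 2 and 3 stood at 3.85 and 3.88. In RNA from a whole culture, more expressing cells and more RNA per cell cannot be told apart.

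**Figure D1:**
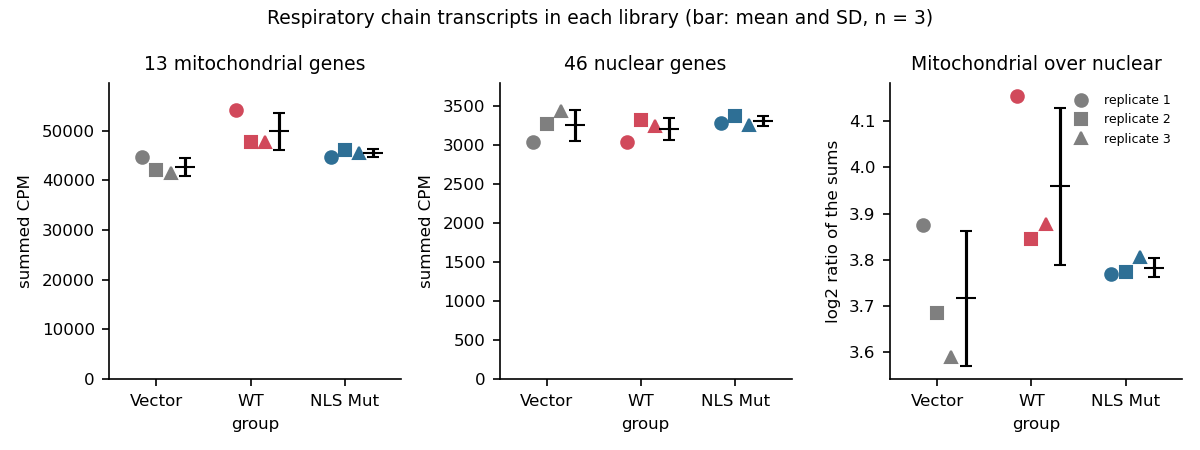
Summed CPM of the 13 mitochondrial genes (left) and the 46 nuclear genes (middle), and the log2 ratio of both sums (right), with 1 point per library by group and the mean and SD (n = 3) as a black bar. The 3 WT libraries, from 47679 to 54173 CPM, lie above all others in the left panel, while the groups overlap in the middle panel.

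Between WT and Vector, 7 of the 13 mitochondrial genes were called higher and none lower, while none of the 46 nuclear genes was called in either direction. Calls are adjusted p-values under 0.05 in edgeR, and over all 18653 tested genes 0.214% were called higher and 0.343% lower in this comparison. The called genes came from all 4 mitochondrially encoded complexes: MT-ND4, MT-ND5 and MT-ND6 of complex I, MT-CYB of complex III, MT-CO1 and MT-CO2 of complex IV, and MT-ATP6 of the ATP synthase. In 9 of the 13 genes every WT library lay above every Vector library, against 6.53% of all tested genes. The 13 genes are cut from shared precursors and were measured in the same libraries. Counts of them, here and in the other comparisons, are therefore not counts of independent results. The median log2 difference was 0.24 over the mitochondrial genes, -0.02 over the nuclear genes and -0.002 over all tested genes. The called mitochondrial genes had standard errors of 0.042 to 0.074, and the nuclear genes, with fewer reads, 0.056 (CYCS) to 0.587 (NDUFV2). MT-ND4L, at 0.27 ± 0.068 (SE), was not called. The absence of nuclear calls therefore does not show that no nuclear gene changed by such an amount. Without Vector replicate 1, 9 mitochondrial genes were called higher, with MT-ND2 and MT-ND4L added, and 3 nuclear genes were called lower, CYCS, NDUFA1 and NDUFS6. With all libraries, 1 nuclear gene was higher and 5 lower at an unadjusted p under 0.05. Over all tested genes the shares at that threshold were 5.19% higher and 6.52% lower. DESeq2 called CYCS lower. Leaving out Vector replicate 2, Vector replicate 3 or WT replicate 1 left 3 calls each time, of MT-ND4, MT-CO1 and MT-CO2.

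The 13 genes lie between bases 3307 and 15887 of chromosome M in GRCh38 (GENCODE release 29). MT-CO1 encodes the catalytic subunit of complex IV, where oxygen is bound. Its values were 9324, 8507 and 8288 CPM in Vector, 11730, 9755 and 10146 in WT, and 9771, 9957 and 10079 in NLS Mut. Vector was the lowest group with no overlap, and the libraries of the other groups overlapped. The log2 difference from Vector was 0.28 ± 0.047 for WT (SE, adjusted p = 0.0033, edgeR) and 0.19 ± 0.047 for NLS Mut (adjusted p = 0.051). MT-CO2, whose product takes electrons from cytochrome c, stood at 6925, 6793 and 6660 CPM in Vector, 8748, 7571 and 7826 in WT, and 6849, 7407 and 7109 in NLS Mut. WT was the highest group with no overlap. The level in WT rose by 0.24 ± 0.042 against Vector (adjusted p = 0.0032) and stood 0.18 ± 0.042 above NLS Mut (adjusted p = 0.048). MT-ND4 is a proton-pumping membrane subunit of complex I. Its values were 8310, 7603 and 7432 CPM in Vector, 10267, 8898 and 8961 in WT, and 8272, 8752 and 8290 in NLS Mut, with WT above all others. Against Vector, WT was higher by 0.27 ± 0.045 (adjusted p = 0.0028).

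MT-CYB, the only mitochondrially encoded subunit of complex III, stood at 3011, 2923 and 2886 CPM in Vector, 3757, 3335 and 3282 in WT, and 3084, 3280 and 3051 in NLS Mut. The 3 groups did not overlap, with Vector lowest and WT highest, though NLS Mut replicate 2 was almost level with WT replicate 3. WT differed from Vector by 0.23 ± 0.045 (adjusted p = 0.0098, edgeR). MT-ATP6 encodes the membrane subunit of the ATP synthase through which protons flow. It was measured at 2721, 2467 and 2469 CPM in Vector, 3373, 2858 and 2954 in WT, and 2666, 2766 and 2627 in NLS Mut, and its log2 difference between WT and Vector was 0.26 ± 0.050 (adjusted p = 0.0092). MT-ND5, another pumping subunit of complex I, stood at 2652, 2662 and 2464 CPM in Vector, 3392, 2910 and 2859 in WT, and 2873, 2886 and 3228 in NLS Mut. Both GRP78 groups lay above Vector, by 0.24 ± 0.053 for WT (adjusted p = 0.034) and 0.21 ± 0.053 for NLS Mut (adjusted p = 0.058). This call was lost under more omissions than the other 6, since leaving out Vector replicate 2 or 3, WT replicate 1 or NLS Mut replicate 1 or 2 ended it, with adjusted p up to 0.31 and a log2 difference as low as 0.16.

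MT-ND6 is the only protein gene on the light strand, so it is transcribed in the opposite direction to the other 12. It stood at 457, 419 and 401 CPM in Vector, 663, 498 and 510 in WT, and 440, 462 and 481 in NLS Mut. WT lay above all other libraries, and at 0.39 ± 0.074 (adjusted p = 0.0092, edgeR) its log2 difference from Vector was the largest of the 13 genes with all libraries. Without WT replicate 1 it was 0.25 (adjusted p = 0.14), below the 0.28 of MT-ND4L. DESeq2 did not call MT-ND6 (adjusted p = 0.068), nor did edgeR with the 2 groups alone (adjusted p = 0.059). The count for MT-ND6 is uncertain because the library does not keep strand: the 2 strand columns together held 2.31 times the unstranded count, against a ratio of 1.00 to 1.22 for the other 12 genes. With the sum of both strands, the count of mitochondrial calls in this comparison was again 7.

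For the other mitochondrial genes edgeR made no call between WT and Vector. MT-ND1 and MT-ND2, membrane subunits of complex I, differed from Vector by 0.10 ± 0.042 (adjusted p = 0.31, edgeR) and 0.14 ± 0.046 (adjusted p = 0.18). MT-ND4L, whose reading frame overlaps MT-ND4, at 242 to 348 CPM, differed by 0.27 ± 0.068 (adjusted p = 0.065, edgeR), and DESeq2 called it higher (0.27, adjusted p = 0.018). MT-ND3 was at 460, 450 and 521 CPM in Vector, 405, 518 and 432 in WT, and 455, 419 and 427 in NLS Mut. It had the only negative difference between WT and Vector among the 13, at -0.08 ± 0.069 (adjusted p = 0.72), and the groups overlapped.

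**Figure D2:**
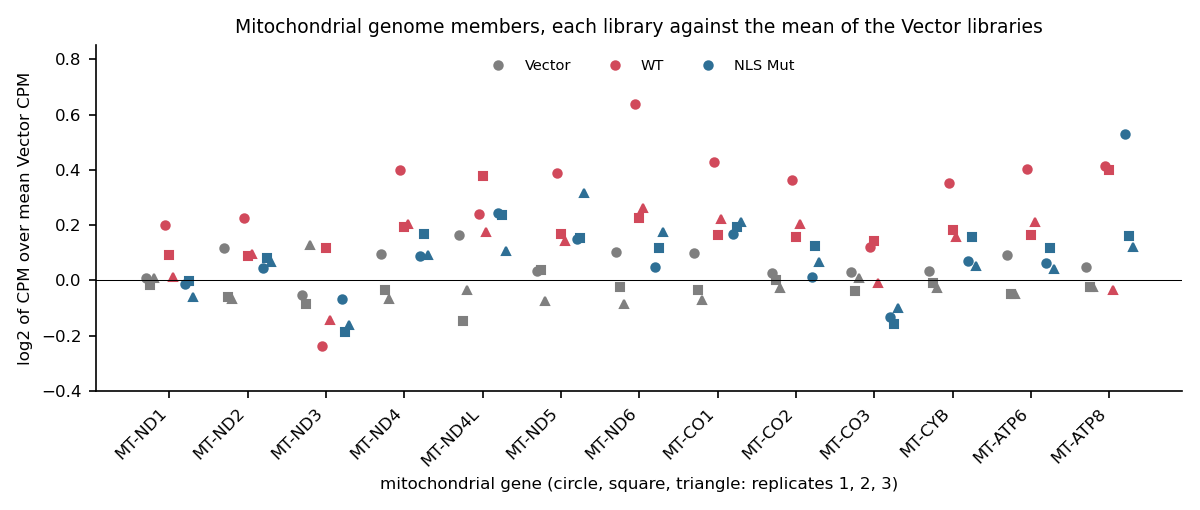
Each library's CPM of the 13 mitochondrial genes as log2 of its ratio to the mean of the 3 Vector libraries, coloured by group, with circles, squares and triangles for replicates 1, 2 and 3. WT points lie above the Vector points for 9 genes, MT-ND6 in WT replicate 1 is the highest point, and MT-CO3 is the gene with all NLS Mut points below all Vector points.

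Per kilobase of gene, the order of the mitochondrial genes was much the same in the 3 groups. MT-CO2 was the most abundant, at 9931 ± 193 CPM per kilobase (SD, n = 3) in Vector, 11766 ± 905 in WT and 10412 ± 408 in NLS Mut. MT-CO1 and MT-ND4 followed at 5646 ± 354 and 5647 ± 338 in Vector and did not differ from each other beyond their spread in any group except NLS Mut, where they stood at 6443 ± 101 and 6123 ± 197. MT-CO3 came next at 4841 ± 112 in Vector, then MT-ATP6, MT-ND1, MT-ND2 and MT-CYB between 2577 and 3748. MT-ND5 (1431 ± 61.4) and MT-ND3 (1380 ± 111) did not differ beyond their spread in Vector. MT-ND4L and MT-ND6 were at 902 ± 99 and 810 ± 54.7, and MT-ATP8 was lowest at 30.0 ± 0.865. The level of MT-ND4L against MT-ND4 is uncertain. Its gene has 297 bases and shares 7 with MT-ND4, and reads on more than 1 gene were not counted.

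The level of MT-ATP8, which encodes a small subunit of the ATP synthase, is uncertain because of how reads were counted. Its gene spans 207 bases, shares 46 of them with MT-ATP6, and reads on more than 1 gene were not counted. It stood at 6.07 to 8.97 CPM, with overlapping WT and Vector libraries. MT-ATP6 in turn shares 1 base with MT-CO3. Both joints are shown because MT-ATP6 and MT-CO3, neighbours on the same strand, differed in how they moved. They come from the GRCh38 reference, at chrM:8507-8592 and chrM:9168-9246 of the plus strand. In the first, capitals mark the bases that belong to both MT-ATP8 and MT-ATP6. In the second, capitals mark the start codon of MT-CO3, whose A is also the last base of MT-ATP6.
MT-ATP8 to MT-ATP6: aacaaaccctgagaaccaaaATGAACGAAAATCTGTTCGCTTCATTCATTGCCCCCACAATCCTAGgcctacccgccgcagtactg
MT-ATP6 to MT-CO3: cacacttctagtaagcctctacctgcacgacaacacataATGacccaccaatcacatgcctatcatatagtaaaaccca

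MT-CO3, the third mitochondrial subunit of complex IV, had the lowest adjusted p of the 13 mitochondrial genes between WT and NLS Mut. It stood at 3872, 3700 and 3814 CPM in Vector, 4128, 4191 and 3773 in WT, and 3461, 3402 and 3542 in NLS Mut. Every NLS Mut library lay below every library of both other groups, while WT and Vector overlapped. The log2 difference between WT and NLS Mut was 0.22 ± 0.040 (adjusted p = 0.0061, edgeR), and those from Vector were 0.09 ± 0.040 for WT (adjusted p = 0.40) and -0.13 ± 0.040 for NLS Mut (adjusted p = 0.14). Its neighbour MT-ATP6 differed from Vector by 0.26 and 0.07. MT-CO3 also moved apart from the other complex IV genes, a ratio that was chosen after the values were seen and has no test. The log2 ratio of MT-CO3 to MT-CO1 was -1.27, -1.20 and -1.12 in Vector, -1.51, -1.22 and -1.43 in WT, and -1.50, -1.55 and -1.51 in NLS Mut. NLS Mut lay below Vector on this ratio, and WT overlapped with both.

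Between WT and NLS Mut, the comparison of the 2 GRP78 forms, 2 of the 13 mitochondrial genes were called higher in WT, MT-CO2 and MT-CO3, against 0.3% of all tested genes. Of the 46 nuclear genes 1, CYCS, was called lower, against 0.204%. In 8 mitochondrial genes every WT library lay above every NLS Mut library, against 8.25% of all tested genes, and in 2 nuclear genes, CYCS and CYC1, every WT library lay below, against 9.42%. The median log2 difference was 0.13 over the mitochondrial genes, -0.05 over the nuclear genes and -0.005 over all tested genes. MT-ATP6 differed by 0.19 ± 0.050 (adjusted p = 0.075, edgeR) and MT-ND6 by 0.27 ± 0.074 (adjusted p = 0.085). DESeq2 called MT-ATP6 higher (adjusted p = 0.038) and did not call MT-ND6 (adjusted p = 0.26), while edgeR called both with no filter, with the 2 groups alone, with GC and length correction and with the replicate number as a block. Without Vector replicate 1, which belongs to neither group but to the shared estimate of the spread, 7 mitochondrial genes were called higher, while CYCS was still the only nuclear call. The call of MT-CO2 ended without WT replicate 1 or 3 or any single NLS Mut library, with log2 differences between 0.12 and 0.23 over all 9 omissions and adjusted p up to 0.24. MT-CO3 lost its call only without NLS Mut replicate 2 (adjusted p = 0.073).

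Between NLS Mut and Vector, no member of either genome was called by edgeR, where 0.295% of all tested genes were called higher and 0.499% lower. At an unadjusted p under 0.05, 5 mitochondrial genes were higher and 1 lower, and 2 nuclear genes were higher. Over all tested genes, 6.13% were higher and 6.03% lower at that threshold. DESeq2 called 2 mitochondrial genes, MT-CO1 and MT-ND5, and no nuclear gene. In 4 mitochondrial and 6 nuclear genes every NLS Mut library lay above every Vector library, against 9.28% of all tested genes. The 4 were MT-ND5, MT-CO1, MT-CYB and MT-ATP8. The 6 were NDUFA5, SDHA, SDHB, SDHD, UQCRB and CYCS. Median log2 differences were 0.09 over the mitochondrial genes, 0.05 over the nuclear genes and -0.002 over all tested genes. Without Vector replicate 1, 5 mitochondrial genes were called higher (MT-ND2, MT-ND4, MT-ND4L, MT-ND5 and MT-CO1) and MT-CO3 lower, and among the nuclear genes NDUFV1 was called lower. The 3 comparisons share their libraries in pairs, so the called counts of 7, 2 and 0 mitochondrial genes are not independent, and a larger number of calls in a comparison does not show that its effect was larger.

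**Figure D3:**
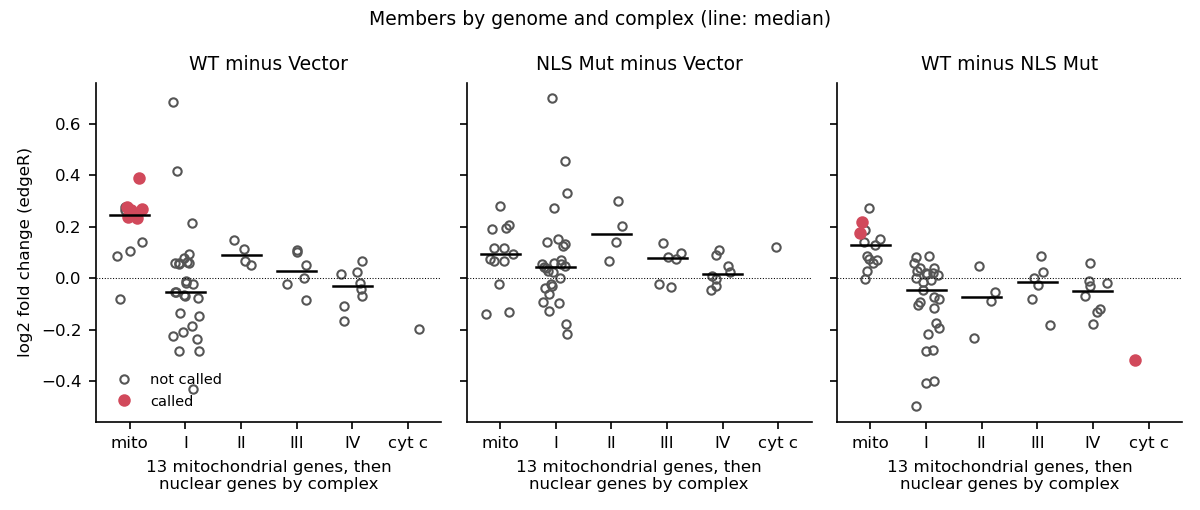
Log2 fold change of each of the 59 genes in the 3 comparisons (edgeR), with the 13 mitochondrial genes first, then nuclear genes by complex, red for genes called at an adjusted p under 0.05 and a black line at each median. The 7 mitochondrial calls between WT and Vector lie between 0.23 and 0.39. CYCS, shown as cyt c, is the only nuclear call, at -0.32 in the panel of WT minus NLS Mut.

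CYCS encodes cytochrome c, the small carrier between complexes III and IV, which also starts the assembly of the apoptosome when it leaves the mitochondrion. It was the only nuclear member called in any comparison. It stood at 271, 260 and 278 CPM in Vector, 222, 246 and 238 in WT, and 288, 295 and 296 in NLS Mut. The 3 groups did not overlap, with WT lowest and NLS Mut highest. WT lay below NLS Mut by a log2 difference of -0.32 ± 0.056 (SE, adjusted p = 0.0034, edgeR), a level 19.7% lower. Differences from Vector were -0.20 ± 0.056 for WT (adjusted p = 0.12) and 0.12 ± 0.056 for NLS Mut (adjusted p = 0.37). The call between the GRP78 forms was kept under all 11 alternatives that used every library and was lost without WT replicate 1 or NLS Mut replicate 2, where the adjusted p reached 0.054 and the log2 difference ranged from -0.34 to -0.27 over all 9 omissions. DESeq2 also called CYCS lower in WT than in Vector. So did edgeR without Vector replicate 1, at -0.19 (adjusted p = 0.019), and with GC and length correction, at -0.235 (adjusted p = 0.013).

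**Figure D4:**
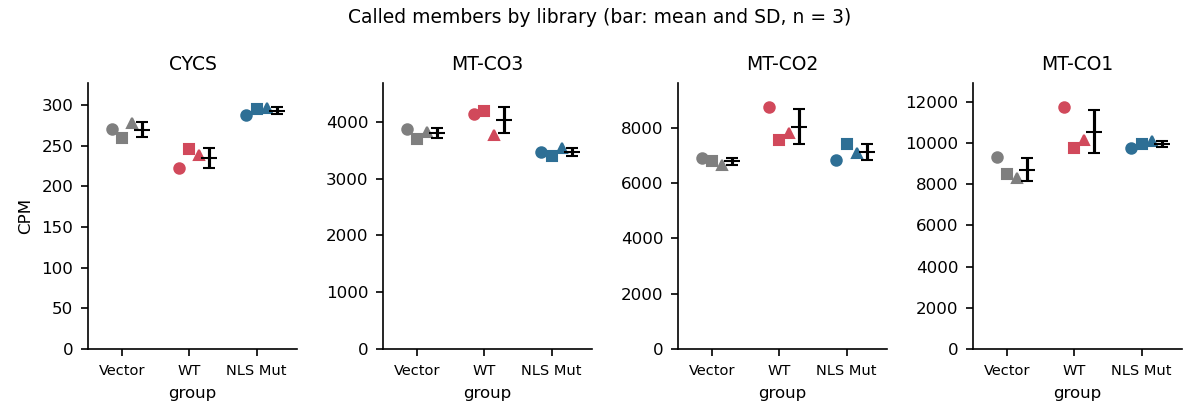
CPM of CYCS, MT-CO3, MT-CO2 and MT-CO1 in each library by group, with the mean and SD (n = 3) as a black bar and axes that start at 0. CYCS runs from 222 to 246 CPM in WT and from 288 to 296 in NLS Mut, on either side of Vector, whereas MT-CO3 is lowest in NLS Mut.

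The genes whose log2 CPM followed CYCS most closely over the 9 libraries were RASSF1 (Pearson r = 0.96), PRXL2A (0.958), ZNF665 (0.951), UPP1 (0.941) and TAF1D (0.94), among the 10070 genes whose mean reached 10 CPM. This is a ranking of likeness over 9 libraries that share 3 groups. UPP1, which encodes uridine phosphorylase, was at 427 ± 27.9 CPM in Vector, 352 ± 28.4 in WT and 490 ± 17.1 in NLS Mut, and was called lower in WT than in NLS Mut, with a log2 difference of -0.48 (adjusted p = 5.8e-05, edgeR). RASSF1 was called in the same comparison, at -0.43 (adjusted p = 0.038). PRXL2A, ZNF665 and TAF1D were not called there (adjusted p = 0.25, 0.36 and 0.085, edgeR). The 5 genes were picked for likeness to CYCS in these same libraries, so a lower level in WT than in NLS Mut follows from the choice. Their p-values therefore do not test a link to CYCS. No other member of the respiratory chain was among the 5.

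In GENCODE release 29 (GRCh38), CYCS spans bases 25120091 to 25125361 of chromosome 7 and is read from the minus strand. The bases upstream of the gene are shown because nuclear respiratory genes are classically tied to the factor NRF1, and CYCS was the only nuclear member called. A part of NRF1 in this call was not tested. The sequence is from RefSeq (GRCh38.p14), on the minus strand at chr7:25125362-25125510, and capitals mark a match to GCATGCGC, the core letters of the NRF1 motif, searched on both strands. The match begins 68 bases before the start of the gene in GENCODE and 169 bases before the start in RefSeq.
CYCS upstream: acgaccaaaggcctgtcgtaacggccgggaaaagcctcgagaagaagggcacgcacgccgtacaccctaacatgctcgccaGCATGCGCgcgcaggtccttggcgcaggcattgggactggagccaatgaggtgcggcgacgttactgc

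Promoter windows of RefSeq, from 250 bases before to 50 after the start, were found for 38 of the 46 nuclear genes. The NRF1 core was in the windows of 11 of the 38 genes (28.9%), against 3.05% of all 35116 windows. They were COX5B, COX6A1, CYCS, NDUFA5, NDUFA6, NDUFA8, NDUFB4, NDUFS6, NDUFS7, SDHB and SDHD, of which CYCS alone was called. The longer NRF1 consensus, which contains this core, was in 3 of 38 (7.89% against 1.24%). CCGGAAG, a motif of ETS factors such as the GABP complex that also serves respiratory genes, was in 11 of 38 (28.9% against 10.3%). The E-box CACGTG was in 1 of 38 (2.63% against 7.26%), and the looser E-box CANNTG, which includes it, was in 22 (57.9% against 68.7%). A match describes letters in a window and is not a binding site.

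Complex I, which takes electrons from NADH, had 27 nuclear members. None was called in any comparison by edgeR or DESeq2. At an unadjusted p under 0.05, 2 were lower for WT minus NLS Mut. There were 1 higher and 3 lower for WT minus Vector, and 1 higher for NLS Mut minus Vector. Shares of all tested genes at that threshold, higher and lower, were 5.55% and 6.0%, 5.19% and 6.52%, and 6.13% and 6.03% in this order. Median log2 differences in this order were -0.05, -0.05 and 0.04. NDUFV1, the subunit that binds NADH, had the most reads of the 27, at 358 ± 31.1 CPM in Vector (SD, n = 3), 342 ± 13.2 in WT and 335 ± 8.79 in NLS Mut. NDUFS8, an iron-sulfur subunit, was at 184 ± 20.7, 182 ± 9.23 and 180 ± 7.44 CPM. Both overlapped between all groups.

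The accessory subunit NDUFA1, encoded on the X chromosome, showed the largest negative difference from Vector in WT, at -0.43 ± 0.15 (SE, adjusted p = 0.21, edgeR). Its values were 28.8, 38.4 and 36.9 CPM in Vector, 17.9, 35.2 and 23.9 in WT, and 27.9, 30.6 and 31.3 in NLS Mut, so the groups overlapped and WT replicate 1 was lowest. It was called lower in WT than in Vector without Vector replicate 1 (-0.55, adjusted p = 0.016) or without WT replicate 2 (-0.73, adjusted p = 0.0029). NDUFA8, an accessory subunit at 35.5 to 49.5 CPM in WT, was likewise called lower against both other groups without WT replicate 2 (-0.45 against NLS Mut, adjusted p = 0.033, and -0.38 against Vector, adjusted p = 0.048), and NDUFS6, at 46.6 to 66.2 CPM in Vector, in the comparison with Vector without Vector replicate 1 (-0.37, adjusted p = 0.0060). Both were named after their values were seen. NDUFB3, another accessory subunit, was at 21.1, 18.9 and 24.1 CPM in Vector, 15.1, 19.6 and 18.0 in WT, and 19.4, 23.9 and 26.7 in NLS Mut, a log2 difference between the GRP78 forms of -0.41 ± 0.13 (adjusted p = 0.17). The remaining large differences in complex I came from genes with almost no counted reads. NDUFS7, an iron-sulfur subunit, had 1.27 to 3.57 CPM, NDUFV2, a subunit of the NADH-binding module, 0.326 to 1.82 CPM, and the accessory subunit NDUFB8 0.407 to 1.57 CPM. Their standard errors were 0.34 to 0.59 on the log2 scale, so differences of the size seen for the mitochondrial genes were not detectable there. The strand columns of NDUFS7 together held 29.8 times its unstranded count, and those of NDUFA2 7.76 times. Reads where they overlap a gene of the other strand, which may belong to either gene, were therefore not counted for them. Nuclear genes with smaller ratios of this kind were UQCRQ (3.14), COX6C (2.28), UQCRB (1.63) and NDUFB9 (1.49), so their counts are also uncertain.

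Complex II, or succinate dehydrogenase, is the only complex with no mitochondrially encoded subunit, and none of its 4 genes was called by edgeR or DESeq2 or had an unadjusted p under 0.05. SDHB, its iron-sulfur subunit, was at 59.3, 61.3 and 63.9 CPM in Vector, 66.1, 62.3 and 63.1 in WT, and 65.5, 67.7 and 70.5 in NLS Mut. NLS Mut lay above Vector with no overlap, by 0.14 ± 0.073 on the log2 scale (adjusted p = 0.44). The membrane anchors SDHC and SDHD differed between WT and Vector by 0.12 ± 0.066 and 0.15 ± 0.10, with adjusted p of 0.52 and 0.61 in edgeR. SDHA, the flavoprotein that oxidizes succinate, had only 4.22 to 6.08 counted CPM and is uncertain.

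Complex III, which passes electrons to cytochrome c, had 6 nuclear members, with none called by edgeR or DESeq2. In this complex only CYC1 had an unadjusted p under 0.05, lower in WT than in NLS Mut, against 6.0% of all tested genes. UQCRC1 and UQCRC2, its core proteins, were at 260 ± 18.9 and 141 ± 5.90 CPM (SD, n = 3) in Vector, 269 ± 17.1 and 151 ± 8.04 in WT, and 254 ± 9.98 and 148 ± 8.70 in NLS Mut. UQCRFS1, the Rieske iron-sulfur protein, was at 65.0 ± 5.94, 70.1 ± 3.47 and 71.5 ± 3.84 CPM. None of these 3 separated the groups. CYC1, the cytochrome that hands electrons to cytochrome c, was at 68.1, 86.8 and 92.3 CPM in Vector, 74.6, 79.1 and 79.9 in WT, and 82.3, 90.6 and 92.0 in NLS Mut. WT lay below NLS Mut in every library, by -0.18 ± 0.085 (adjusted p = 0.41, edgeR), while Vector spanned both because of its replicate 1.

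Complex IV, cytochrome c oxidase, had 8 nuclear members here, NDUFA4 included, and none was called by edgeR or DESeq2. The only unadjusted p under 0.05 was that of COX5A, lower in WT than in Vector, against 6.52% of all tested genes. COX4I1, a regulatory subunit, stood at 247 ± 18.6 CPM in Vector (SD, n = 3), 243 ± 15.2 in WT and 246 ± 3.42 in NLS Mut. The log2 difference between WT and Vector was -0.02 ± 0.061 (SE), against 0.28 for MT-CO1 of the same complex. NDUFA4 was at 123 ± 5.87, 125 ± 5.29 and 132 ± 4.48 CPM. COX5A was at 62.7, 65.4 and 59.7 CPM in Vector, 56.5, 59.5 and 51.4 in WT, and 59.4, 60.6 and 61.7 in NLS Mut, with a log2 difference of -0.16 ± 0.077 between WT and Vector (adjusted p = 0.40, edgeR). COX6A1 and COX8A, with 2.12 to 5.28 and 4.39 to 9.82 CPM, overlapped between all groups, and WT replicate 1 was the lowest library for both.

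Other nuclear genes of the mitochondrion also gave few calls. None was called by edgeR or DESeq2 among 17 other subunits of the chain, 18 of the nuclear ATP synthase and 45 tested assembly factors. At an unadjusted p under 0.05, for WT minus Vector, these lists had 0 higher and 2 lower, 1 higher and 1 lower, and 1 higher and 2 lower genes. Of 76 tested mitochondrial ribosomal proteins none was called by edgeR. At an unadjusted p under 0.05, 12 were higher and 1 lower for NLS Mut minus Vector, 2 higher and 10 lower for WT minus Vector, and 0 higher and 7 lower for WT minus NLS Mut. Over all tested genes, the shares at that threshold were 6.13% higher and 6.03% lower, 5.19% and 6.52%, and 5.55% and 6.0% in the same order. For NLS Mut minus Vector DESeq2 called MRPL35 and MRPS27 higher, and for WT minus Vector MRPL30 higher. Their median log2 differences were -0.01 for WT minus Vector, 0.03 for NLS Mut minus Vector and -0.08 for WT minus NLS Mut.

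Among 29 tested genes of mitochondrial transcription and RNA processing, 1, PNPT1, was called by edgeR. At an unadjusted p under 0.05, 6 were higher and 0 lower for NLS Mut minus Vector, against 6.13% and 6.03% of all tested genes. For WT minus Vector 2 were higher and 1 lower (5.19% and 6.52%), and for WT minus NLS Mut 1 and 4 (5.55% and 6.0%). In 8 genes every NLS Mut library lay above every Vector library, against 9.28% of all tested genes. Differences of WT from NLS Mut were negative in 24 genes and positive in 5. PNPT1, a mitochondrial RNA-degrading enzyme, was at 80.5, 81.2 and 76.5 CPM in Vector, 93.0, 87.0 and 100 in WT, and 103, 105 and 98.5 in NLS Mut. Both GRP78 groups lay above Vector, by 0.36 ± 0.069 for NLS Mut, which edgeR called (adjusted p = 0.0074), and by 0.24 for WT, which it did not (adjusted p = 0.13). DESeq2 called both, with adjusted p of 9.3e-05 and 0.037. TFAM, which packages mitochondrial DNA and takes part in its transcription, was at 102 to 114 CPM in Vector, 104 to 116 in WT and 114 to 119 in NLS Mut. POLRMT, the mitochondrial RNA polymerase, was at 126 to 161, 130 to 139 and 151 to 156. LRPPRC, which stabilizes mitochondrial mRNAs, was at 310 to 349 CPM in Vector, 348 to 358 in WT and 352 to 369 in NLS Mut. Its log2 difference from Vector was 0.13 ± 0.055 for WT (adjusted p = 0.34, edgeR). For NLS Mut, with every library above Vector, it was 0.15 ± 0.055 (adjusted p = 0.24). None of these 3 was called in any comparison.

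Of 7 tested nuclear regulators of respiratory genes none was called by edgeR, while DESeq2 called PPRC1 lower in WT than in NLS Mut and ESRRA lower in WT than in Vector. All 7 had a lower mean in WT than in NLS Mut, with a median log2 difference of -0.14. PPARGC1B, PPRC1 and ESRRA had an unadjusted p under 0.05. Over all tested genes, 6.0% were lower at that threshold. PPRC1, a coactivator of NRF1, was at 152, 157 and 150 CPM in Vector, 140, 145 and 145 in WT, and 164, 162 and 170 in NLS Mut. Its 3 groups did not overlap and had the order seen for CYCS, with a log2 difference between the GRP78 forms of -0.21 ± 0.059 (adjusted p = 0.098, edgeR). NRF1 itself was at 17.6 to 25.2 CPM, and its groups overlapped. PPARGC1A, which encodes the coactivator PGC-1α, was at or near 0 in all libraries, up to 0.0924 CPM.

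Neither mitochondrial rRNA was called by edgeR, while DESeq2 called MT-RNR2 higher in WT than in NLS Mut (0.14, adjusted p = 0.028). MT-RNR2, the large rRNA, was at 12118, 12198 and 12414 CPM in Vector, 13599, 12654 and 12488 in WT, and 11748, 11890 and 11732 in NLS Mut, in groups that did not overlap. Its log2 difference was 0.08 ± 0.033 for WT minus Vector (adjusted p = 0.34, edgeR) and 0.13 ± 0.033 for WT minus NLS Mut (adjusted p = 0.060). MT-RNR1, the small rRNA, ranged from 1239 to 2198 CPM with all groups overlapping. How rRNA was removed or mRNA selected is not given in the sources used here, and the rRNA counts depend on it. Copies of mitochondrial genes in the nuclear genome can take or lose reads of the mitochondrial genes. Of 22 tested copies, MTATP6P1 was called higher in WT than in Vector, at 0.40 ± 0.081 (adjusted p = 0.017), with 84.1 to 133 CPM against 2467 to 3373 CPM for MT-ATP6. The share of reads mapped to several places was 6.71% in WT replicate 1, the lowest of all libraries, and up to 9.10% in the others, and its part in the high mitochondrial sum of that library was not tested.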

How the data were processed

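RNA-Seq of 9 H1975 libraries was used, in the 3 groups named in the sample labels. Gene by gene raw counts of reads were deposited by the authors without normalization, in the layout of STAR. The submitters' processing notes name STAR 2.7.9a, DESeq2 1.36.0 and GRCh38.p14, and the annotation is not given in the sources used here. The unstranded column served for all tests, as 50.6% to 51.9% of stranded reads were forward. The 4 summary lines (27.6% to 30.7% of reads) were left out. Coordinates and lengths came from GENCODE release 29 (GRCh38).

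TMM normalization was applied, and all 9 libraries entered 1 quasi-likelihood model with edgeR 4.0.16 in R 4.3.3 (filterByExpr, 18653 genes, Benjamini-Hochberg adjustment over all of them, threshold 0.05). CPM values use TMM library sizes. The median biological coefficient of variation was 11.2%. An exact permutation test of 3 against 3 cannot go below 0.1. The procedure was tested for WT minus NLS Mut on 3 simulated data sets with 200 changed genes each. It called 64.7% of changes of 1 on the log2 scale and 49.9% of the smaller changes, and 4.52% of its calls were false. Many true changes were thus missed. Replicates differed by more than sampling noise and were kept separate. Figures used matplotlib 3.10.9.

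The members and lists were chosen with earlier results of these data known. Named were the 13 mitochondrial genes, CYCS, called nuclear members, in each nuclear complex the 2 most abundant genes and the 2 with the largest difference in each comparison, and called genes of the other lists. Further genes were named after their values were seen. Alternatives were DESeq2 1.42.0, its size factors, library size alone, scaling by genes outside the mitochondrial genome, other filters, 2 groups alone, the replicate number as a block, GC and length correction (loess, span 0.3), a threshold of 0.01 and leaving out each library. The sum of both strands, the NRF1 core and the summed CPM without each library were added after seeing the data.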

Additional observations from a re-analysis of the deposited data

Results flagged for a closer look

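For CYCS the libraries of the WT and NLS Mut groups lay on opposite sides of Vector. With all libraries and no correction for GC and length, edgeR called neither difference from Vector (-0.20, adjusted p = 0.12, for WT, and 0.12, adjusted p = 0.37, for NLS Mut). It called WT lower than Vector with that correction (-0.235, adjusted p = 0.013) and without Vector replicate 1 (-0.194, adjusted p = 0.019). All 3 WT libraries lay below all 3 Vector libraries and all 3 NLS Mut libraries lay above them, and the log2 difference of WT from NLS Mut was -0.32 (adjusted p = 0.0034, edgeR). This difference is itself the test of whether the effects of the 2 GRP78 forms differ, since both were compared with the same Vector libraries. Groups of 3 were not searched for single outlying libraries.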

How the results depend on the processing

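No named gene changed direction where it was called. Counts of called genes depended on the setting. For WT minus NLS Mut, mitochondrial calls went from 2 to 5 with no filter, 6 with the 2 groups alone, 7 with GC and length correction and 1 at a threshold of 0.01, and ranged from 0 to 7 when 1 library was left out. For WT minus Vector, they went from 7 to 3 with the 2 groups alone and ranged from 3 to 9 when 1 library was left out. Beside the 7, GC and length correction also called MT-ND1, MT-ND2 and MT-ND4L higher. With no filter or with the replicate number as a block, MT-ND4L was called beside the 7. For NLS Mut minus Vector, DESeq2, no filter, the 2 groups alone and GC and length correction each gave 2 in place of 0, with a range of 0 to 6. Nuclear calls for WT minus Vector went from 0 to 1 with DESeq2, no filter and GC and length correction (0 to 3 over omissions), and for NLS Mut minus Vector to 1 with GC and length correction, CYC1 (0 to 1). Nuclear calls for WT minus NLS Mut ranged from 0 to 2. The median over the nuclear genes changed sign over omissions in all 3 comparisons. It ranged from -0.074 to 0.008 for WT minus NLS Mut (positive without WT replicate 1), from -0.072 to 0.047 for WT minus Vector (positive without WT replicate 1 or Vector replicate 3) and from -0.006 to 0.082 for NLS Mut minus Vector (negative without Vector replicate 1). The mitochondrial median for NLS Mut minus Vector ranged from 0.055 to 0.121. The cause was not tested.

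Calls over all genes, with 94, 104 and 148 for WT minus NLS Mut, WT minus Vector and NLS Mut minus Vector, were 291, 256 and 414 with DESeq2, 225, 289 and 240 with no filter, 424, 200 and 286 with GC and length correction, and 34, 32 and 45 at a threshold of 0.01. The 2 groups alone gave 315 and 26 for the first and second. Over omissions they ranged from 27 to 388, 19 to 1256 and 33 to 1002. The share of calls that were higher, 59.6%, 38.5% and 37.2% in this order, became 195 of 424, 68.0% and 74.1% with GC and length correction, 18.4% and 22.7% with library size alone for the comparisons with Vector, and 69.7% with scaling by genes outside the mitochondrial genome for the first. DESeq2 gave 135 higher of 256 and 219 higher of 414 for the comparisons with Vector.

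Whether the replicate numbers pair the libraries was not settled. Same-numbered libraries deviated together with r from -0.024 to 0.059, and 5 of 9 libraries correlated best with their own number. With the replicate number as a block, mitochondrial calls were 5 for WT minus NLS Mut and 2 for NLS Mut minus Vector, and nuclear calls for WT minus Vector were 1 (NDUFA1). Calls over all genes were 212, 232 and 230, against 94, 104 and 148 without the block.

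Counts were low for MT-ATP8, NDUFS7, NDUFV2, NDUFB8, NDUFA2, NDUFA9, NDUFA13, SDHA, COX6A1 and COX8A. With these counts and 3 libraries a group, small differences in these genes were not detectable. The other nuclear genes also had fewer reads than the called mitochondrial genes, so their lack of calls is limited in the same way, to a lesser degree.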
